A study of Canis lupus familiaris with 22 samples.

Results

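Naturally occurring invasive urothelial carcinoma (iUC) of the dog bladder was profiled on Affymetrix Canine 2.0 arrays, with 1 array for each of 18 canine iUC samples and 4 normal bladder samples. Per the study's methods the tumours were high grade by histopathology and were taken by cystoscopy before therapy, and the normal bladders came from healthy dogs of matched age without tumours. Every sample was whole tissue, and the tumour samples came from pet dogs. Tumour cells, stroma and immune cells thus contribute to each iUC value, and for any gene fewer cells of a type and less RNA per cell cannot be told apart. Ages, genotypes and agents were not used here. The account below concerns 12 of the 22 samples, the 6 iUC samples with the highest and the 6 with the lowest expression of cell division genes, called the high side and the low side.

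The sides were chosen by a score, the mean of the centred log2 values of 6 genes of mitosis and DNA synthesis, TOP2A, CDC20, CCNB2, AURKA, RRM2 and PTTG1, read by 10 probe sets. The deposited log2 values had been centred on the median of each probe set over the 22 arrays, so a value of 0 is that median, a difference of 1 is a 2-fold difference, and no absolute level is left. For this reason the identity of the tissue could not be checked from the level of urothelial markers. Scores on the high side, which is iUC replicates 14, 12, 15, 9, 8 and 17, had a lowest, median and highest value of 0.85, 1.17 and 1.38. Those on the low side, which is iUC replicates 7, 16, 18, 3, 6 and 4, were -0.98, -0.57 and -0.16. The last sample inside the high side had 0.85 and the first outside it 0.72, and at the other limit the values were -0.16 inside and 0.07 outside. These scores selected the samples and are a description with no test. The 4 normal bladder samples, which the rule did not use, scored from -1.99 to -1.64, below every iUC sample. No mitotic count or Ki67 stain was used, and MKI67, CCNB1 and CDKN2A were not read by a probe set with that symbol alone, so the sides are high or low in the score and not in a measured rate of division.

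**Figure D1:**
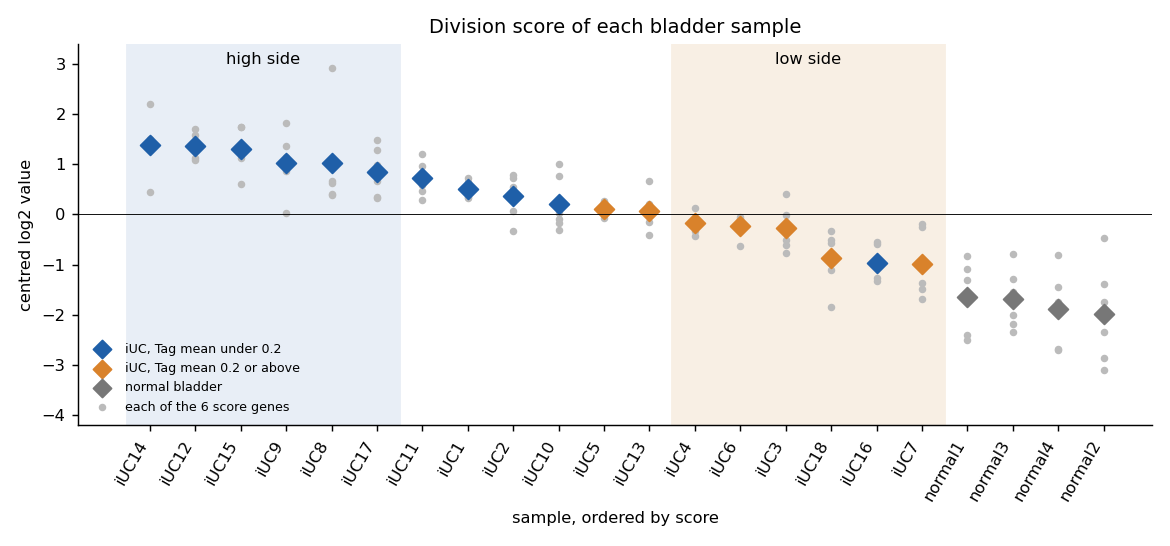
Division score of each of the 22 samples (diamonds, centred log2) in order of the score, with the 6 score genes of each sample as small grey points. Diamond colour gives the class of the array by the mean of its Tag control probe sets (0.2 or above, or under 0.2), and shading marks the 6 samples of each side. All 6 arrays of the high side and 1 of the low side, iUC replicate 16, have a Tag mean under 0.2.

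Dividing cells copy their DNA in S phase and part the copies in mitosis. Many genes of both steps are transcribed in waves, under E2F factors at the entry to S phase and under the B-MYB and FOXM1 complexes before mitosis, and are silent in resting cells. In bulk tumour RNA such genes vary together and are widely read as a sign of how many cells are cycling, and bladder carcinomas commonly carry lesions of the RB pathway that restrains this cycle.

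The sides were not alike in a technical measure that the score did not use. The 17 Affymetrix control probe sets named Tag had a mean of -0.13 to 0.03 on the high side and of 0.13 to 0.43 on the low side, with no overlap (two-sided exact permutation test over samples, p = 0.00217, the smallest that 924 regroupings allow, and 0.00866 after Benjamini-Hochberg adjustment over 4 array measures). A Tag mean of 0.2 or above was found in 0 of 6 arrays of the high side, 5 of 6 of the low side, 2 of 6 between them and 7 of 18 iUC arrays in all. The control probe sets for GAPDH and beta actin had means of -0.08 to 0.24 on the high side and -0.98 to 0.25 on the low side (exact permutation p = 0.0152), the mean over all probe sets was 0.08 and -0.05 (p = 0.00433), and the 3' minus 5' difference of these controls had p = 0.617. Side and Tag class can therefore be told apart on the low side only by iUC replicate 16, whose Tag mean was 0.13. For each gene the difference between the sides is given beside its slope on the score, the log2 change per unit of score, fitted in all 18 iUC samples with the Tag class as a term. The slope was also fitted in the 11 arrays of low Tag mean and in the 7 of high Tag mean alone. Within the 11 arrays the score still fell as the Tag mean rose (Pearson r = -0.73), and within the 7 arrays r was 0.10. Neither the Tag class term nor a fit within 1 class takes up such a relation. A difference between the sides was called at an adjusted p of 0.05 or below with a change of 2-fold or more, and a slope at an adjusted p of 0.05 or below (limma, Benjamini-Hochberg over 15109 genes). The score genes were left out of every fit, but they and the tested genes come from the same arrays, and a gene that varies with them had to differ.

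Between the sides, 1521 genes were higher on the high side, 10.1% of those tested, and 342 were lower, 2.26%. After quantile normalization of the arrays the split was 754 higher and 760 lower. Values of the sides did not overlap for 10.6% of genes upward and 21.5% downward. With the Tag class as a term the same comparison called 90 genes higher (0.596%) and 96 lower (0.635%), and there the low side rests on iUC replicate 16 alone. The slope over all 18 iUC samples with the Tag class called 117 genes with a positive slope (0.774%) and 51 with a negative slope (0.338%). With the Tag mean as a number in place of the class it called 51 and 8. In the 11 arrays of low Tag mean, 106 genes had a positive slope (0.702%) and 259 a negative one (1.71%), but 32 and 5 after quantile normalization, 64 and 50 after scaling to the 75th percentile, and 4 and 0 without iUC replicate 16 (limma, with 646 positive and 775 negative slopes at an unadjusted p under 0.05). In the 7 arrays of high Tag mean limma called 0 genes in either direction (0% and 0%), with 366 positive and 598 negative slopes at an unadjusted p under 0.05 and a lowest adjusted p of 0.366. The slopes in the 7 and in the 11 arrays differed for 0 genes (limma interaction, lowest adjusted p 0.14, with 1015 and 739 genes at an unadjusted p under 0.05). Of the 1521 genes higher on the high side, 69 (4.54%) also had a called positive slope, and of the 342 lower ones 7 (2.05%) had a called negative slope. A slope of like sign, called or not, was found for 1380 (90.7%) and 340 (99.4%) of them, in a fit that includes the samples of the sides. In the arrays of high Tag mean alone the shares were 54.2% and 39.8%, where 56.9% of all genes had a positive slope.

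Most of the genes with a called positive slope were members of the cell division lists, a grouping of the lists that was made after the data were seen. In 9 lists of cell division genes, 216 genes other than the score genes were measured, and 70 of them (32.4%, against 0.774% of all genes tested) had a called positive slope and 0 a called negative one. These 70 made up 59.8% of the 117 genes with a called positive slope. The median slope of the 216 genes was 0.30, against -0.03 for all genes. A positive slope both in the arrays of low and in those of high Tag mean was found for 178 of them, and for 2974 of all 15109 genes. In 18 lists of other pathways and cell types, 0 of 307 further genes had a called slope in either direction. Over all genes 0.774% had a positive and 0.338% a negative one, so few calls are to be looked for among 307 genes. Between the sides 28 of them (9.12%, against 10.1% of all genes) were called higher. By list that share ran from 0% for smooth muscle and others to 40% for cholesterol and fatty acid synthesis. The lists of E2F regulators and of G1 genes are in neither group and are given below.

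**Figure D2:**
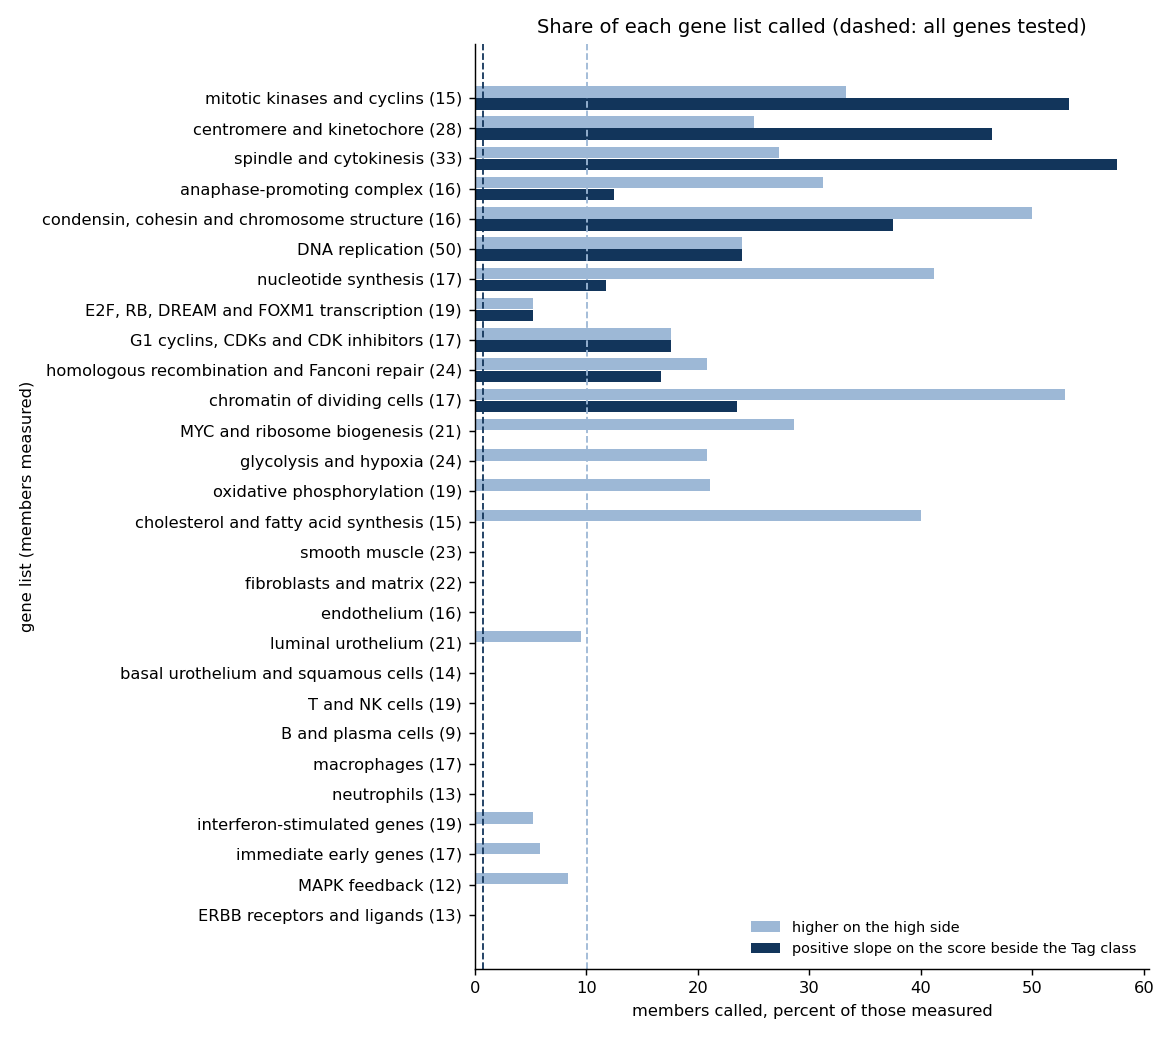
Percent of the measured members of each of 28 gene lists (number in brackets) called higher on the high side (light bars) and called with a positive slope on the score beside the Tag class (dark bars), with dashed lines at 10.1% and 0.774% for all genes tested. Dark bars are found for the lists of cell division and for those of E2F and G1 genes. The lists of metabolism, tissue and immune cells have none, and at 0.774% few calls are to be looked for in lists of their size.

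Mitotic kinases and cyclins set the order of events in mitosis. Of 15 measured, 5 were higher and 1 lower on the high side (median difference 0.84, all genes -0.02). These are 33.3% and 6.67%, against 10.1% and 2.26% of all genes. A called positive slope was found for 8 (median 0.64), 53.3% against 0.774% of all genes. CDK1, the kinase that starts mitosis, had a lowest, median and highest value of 1.17, 1.48 and 1.93 on the high side and of -1.28, -0.79 and -0.02 on the low side. The sides did not overlap, and normal bladder (-1.98 to -1.04) reached from within the low side to below it. The difference was 2.31 ± 0.20 (SE, n = 6 against 6; 4.97-fold; limma adjusted p = 7.75e-05) and the slope 1.15 ± 0.13 per unit of score (adjusted p = 2.64e-04), with 1.15 in the arrays of low and 1.13 in those of high Tag mean. TTK, a kinase of the spindle checkpoint, ran from 1.10 to 2.20 (median 1.49) on the high side and from -0.78 to -0.27 (median -0.37) on the low side, again without overlap. Its slope was 1.03 ± 0.12 (adjusted p = 3.04e-04), at 1.18 in the arrays of low and 0.37 in those of high Tag mean. AURKB, the kinase of the chromosomal passenger complex, rose 3.37-fold (0.47 to 1.43, median 1.16, against -1.46 to -0.29, median -0.55; adjusted p = 2.73e-04) with a slope of 0.78 (adjusted p = 0.0014). BUB1B, also of the spindle checkpoint, rose 3.20-fold (0.60 to 1.83, median 1.16, against -0.73 to -0.21, median -0.50) with a slope of 0.86 (adjusted p = 0.00305). The values of both genes parted the sides completely. PLK1, a kinase needed at many steps of mitosis, was 2.33-fold higher (0.42 to 1.78, median 0.73, against -0.85 to 0.06, median -0.35; adjusted p = 0.00112) with a slope of 0.84 (adjusted p = 9.85e-04). The cyclin CCNA2 overlapped between the sides (-0.27 to 1.72, median 0.67, against -0.67 to 0.44, median 0.03; difference 0.74 ± 0.39, adjusted p = 0.117), and its slope of 0.74 was not called (adjusted p = 0.184). CDC25B, a phosphatase that activates CDK1, was the member called lower, with a difference of -1.38 and a slope of -0.06.

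The kinetochore ties chromosomes to the spindle. Of 28 measured genes of the centromere and kinetochore, 7 (25%, against 10.1% of all genes) were higher and 0 lower on the high side (median difference 0.53). A called positive slope was found for 13 (median 0.32), 46.4% against 0.774% of all genes. All 28 had a positive slope in the 11 arrays of low Tag mean and 25 in the 7 of high Tag mean, against 39.3% and 56.9% of all genes. NUF2, a subunit of the complex that binds microtubules, had 1.62, 2.01 and 2.37 on the high side and -0.71, -0.30 and 0.02 on the low side as lowest, median and highest value. No low sample came near a high one, and the 6 samples between the sides spread from -0.28 to 2.19. The difference was 2.32 ± 0.17 (5.00-fold, adjusted p = 4.42e-05) and the slope 1.14 ± 0.17 (adjusted p = 0.00148). CENPH, of the inner kinetochore, ran from 0.76 to 1.95 (median 0.94) against -1.61 to -0.13 (median -0.74), with a slope of 1.20 (adjusted p = 0.00104), and CENPP, of the same assembly, from 0.64 to 1.42 (median 1.21) against -0.64 to -0.14 (median -0.22), with a slope of 0.80 (adjusted p = 0.00158). Neither gene overlapped between the sides. SPC25, a partner of NUF2, was called 4.33-fold higher but spread widely (0.08 to 3.35, median 1.67, against -1.55 to 2.08, median -0.80; adjusted p = 0.0128), and its slope of 1.44 was not called (adjusted p = 0.0817). SGO1, which protects cohesion at the centromere, did not part the sides at all (-0.16 to 0.43, median 0.05, against -0.71 to 0.50, median 0.26; difference -0.04 ± 0.19, adjusted p = 0.883). Beside the Tag class its slope was 0.41 ± 0.08 (adjusted p = 0.0115), at 0.43 in the arrays of low and 0.34 in those of high Tag mean. Without iUC replicate 16, which had the lowest value on the low side, the slope of SGO1 was 0.44 and was no longer called (adjusted p = 0.23).

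Spindle and cytokinesis genes gave the largest share of called slopes, 19 of 33 (57.6%, against 0.774% of all genes), with a median slope of 0.44. In the 7 arrays of high Tag mean 33 of 33 slopes were positive, against 56.9% of all genes. In those arrays fibroblasts and matrix had 21 of 22 positive and endothelium 15 of 16, so a high share was not particular to division genes. Between the sides 9 of the 33 spindle and cytokinesis genes were higher and 1 was lower (median 0.66), 27.3% and 3.03% against 10.1% and 2.26% of all genes. KIF11, the motor that pushes spindle poles apart, had 1.10, 1.85 and 2.48 on the high side and -1.23, -0.62 and 0.13 on the low side. The sides were separate, with a difference of 2.34 ± 0.26 (5.05-fold, adjusted p = 1.18e-04) and a slope of 1.24 ± 0.17 (adjusted p = 9.08e-04). ASPM, of the spindle pole, rose 3.86-fold (0.73 to 1.88, median 1.26, against -1.13 to 0.07, median -0.85) with a slope of 1.08 (adjusted p = 0.00129). ECT2, which sets the plane of cell cleavage, rose 3.79-fold (0.73 to 1.44, median 1.29, against -1.24 to -0.12, median -0.80) with a slope of 1.06 (adjusted p = 4.23e-04). For both genes the slopes in the 2 Tag classes were close, 1.08 and 1.06 for ASPM and 1.09 and 0.92 for ECT2 in arrays of low and high Tag mean. KIF20B, a kinesin of cytokinesis, rose 3.51-fold with a slope of 0.77 (adjusted p = 0.00557), and BIRC5, which encodes survivin of the chromosomal passenger complex, rose 2.32-fold (0.57 to 1.24, median 1.10, against -0.37 to -0.09, median -0.25) with a slope of 0.67 (adjusted p = 0.00148). Both parted the sides, though KIF20B did so narrowly, at -0.09 against -0.52. The smallest adjusted p of any slope belonged to DLGAP5, which stabilises spindle fibres and was named after its value was seen. Its values were 0.57, 0.87 and 1.05 against -0.72, -0.30 and 0.04, and its slope was 0.75 ± 0.06 (adjusted p = 4.90e-06). STMN1, a microtubule regulator also named after its value was seen, had a slope of 1.00 ± 0.10 (adjusted p = 1.33e-04), at 0.96 in arrays of low and 1.19 in those of high Tag mean. The kinesin KIF18B was the member called lower between the sides (-1.34), and its slope was -0.10.

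**Figure D3:**
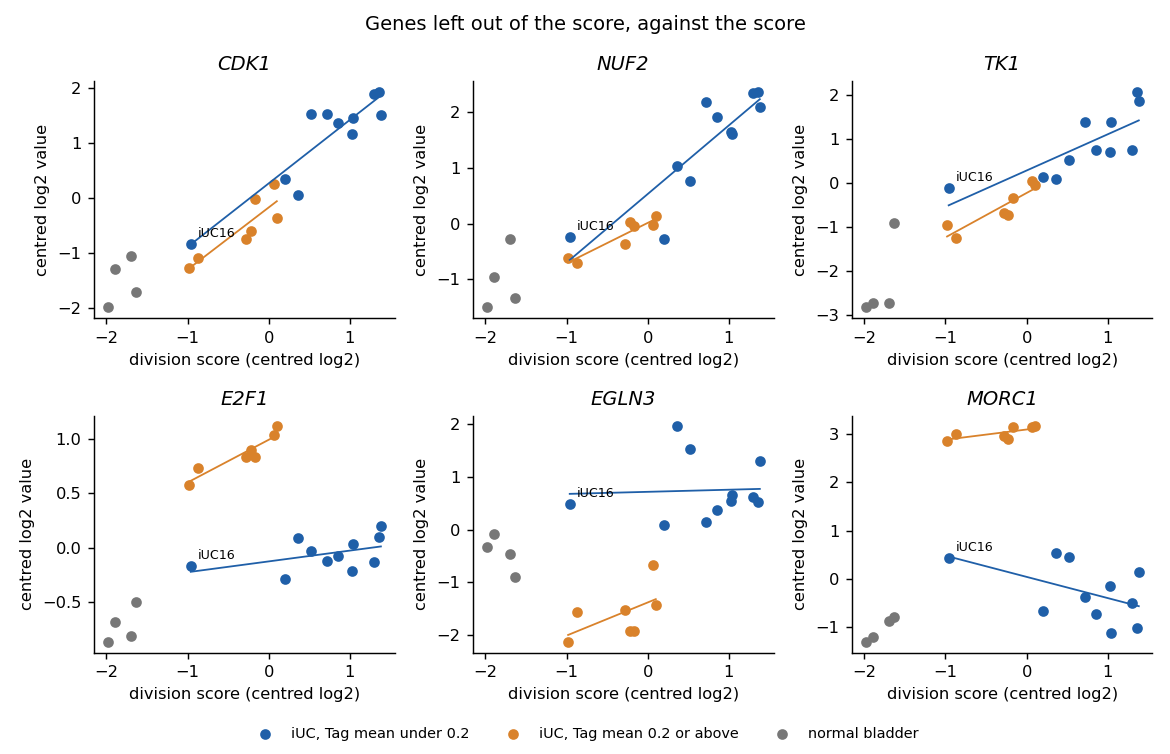
Centred log2 value of 6 genes left out of the score (vertical axes) against the division score of each sample (horizontal axes), coloured by Tag class, with a straight line fitted in each class of iUC arrays and iUC replicate 16 named. CDK1, NUF2 and TK1 climb in both classes, and E2F1 climbs in both while the class of high Tag mean lies higher. For EGLN3 and MORC1 the classes lie apart, with the low-side sample iUC replicate 16 among the arrays of low Tag mean. That sample is the only low-side array of its class, and the cause of the gap was not tested.

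Condensins compact chromosomes and cohesins hold sister copies together. Of 16 measured, 8 were higher on the high side (50%, against 10.1% of all genes) and 6 had a called slope (37.5%, against 0.774%). The medians were 0.96 and 0.35, and 4 of those 6 were condensin subunits, NCAPD2, NCAPG, NCAPG2 and NCAPH. NCAPG2 had 0.87, 1.54 and 2.21 on the high side and -1.01, -0.75 and -0.36 on the low side, a separation of 2.26 ± 0.24 (4.79-fold, adjusted p = 1.09e-04), with a slope of 1.14 (adjusted p = 4.36e-04). NCAPG rose 2.71-fold with a slope of 0.81 (adjusted p = 1.47e-04). The cohesin subunit SMC3 and the condensin subunit SMC4 were called higher between the sides, 3.31-fold and 2.81-fold, but overlapped, and their slopes of 0.40 and 0.41 were not called (adjusted p = 0.266 and 0.331). In iUC replicate 16 the value was -0.10 for SMC3 and 0.09 for SMC4, the highest of the low side for both. The list for the anaphase-promoting complex, the ubiquitin ligase of mitotic exit, also holds its regulators and partners. More of its genes were called between the sides than by slope. Of 16 genes 5 (31.2%, against 10.1% of all genes) were higher between the sides (median 0.84). A called slope was found for 2 (12.5%, against 0.774%), FBXO5 and ANAPC5 (median of the list 0.13). The scaffold of the complex, ANAPC1, rose 2.35-fold (0.17 to 1.21, median 0.58, against -1.01 to -0.12, median -0.56) with a slope of 0.44 (adjusted p = 0.131), at 0.54 in arrays of low and 0.0042 in those of high Tag mean. The ubiquitin-conjugating partner of the complex, UBE2S, rose 2.09-fold with a slope of 0.45 (adjusted p = 0.0975).

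Genes of DNA replication were also called in both fits. Of 50 measured, 12 were higher on the high side and 12 had a called slope (medians 0.58 and 0.27). Each is 24%, against 10.1% and 0.774% of all genes. Positive slopes numbered 47 and 46 in the arrays of low and of high Tag mean, against 39.3% and 56.9% of all genes. RFC3, of the clamp loader, had 0.35, 0.96 and 1.35 on the high side and -1.36, -1.19 and -0.81 on the low side. It parted the sides by 2.00 ± 0.17 (3.99-fold, adjusted p = 7.70e-05) with a slope of 0.90 (adjusted p = 0.0115). GINS4 and MCM2, of the replicative helicase, rose 3.33-fold and 3.02-fold with slopes of 1.04 and 0.74 (adjusted p = 0.0115 and 0.00673). ORC6, of the origin recognition complex, rose 3.01-fold with a slope of 0.83 (adjusted p = 0.00164). All 3 of these genes separated the sides. PCNA, the sliding clamp, was called 2.77-fold higher but overlapped (0.30 to 1.38, median 0.51, against -1.83 to 0.42, median -0.89; adjusted p = 0.00256), and its slope of 0.38 was not called (adjusted p = 0.247), at 0.23 in arrays of low and 1.00 in those of high Tag mean. The low-side sample of highest PCNA was again iUC replicate 16, at 0.42.

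Nucleotide synthesis, the supply of DNA precursors, had 7 of 17 genes higher on the high side (median 0.80), 41.2% against 10.1% of all genes. A called slope was found for 2 (11.8%, against 0.774%), RRM1 and TK1 (median of the list 0.27). TK1, the thymidine kinase of S phase, had 0.71, 1.07 and 2.07 against -1.25, -0.70 and -0.11, a rise of 3.80-fold without overlap (adjusted p = 2.53e-04). Normal bladder lay between -2.82 and -0.92, and the slope was 0.86 ± 0.16 (adjusted p = 0.0109). TYMS, thymidylate synthase, rose 4.19-fold (0.15 to 1.25, median 0.31, against -2.04 to -1.19, median -1.62; adjusted p = 9.07e-05), and its slope of 0.90 missed the threshold (adjusted p = 0.0722). PAICS, of purine synthesis, rose 2.91-fold with a slope of 0.39 (adjusted p = 0.26). Among 24 genes of homologous recombination and the Fanconi pathway, which mend broken and crosslinked DNA, 5 were higher between the sides (20.8%, against 10.1% of all genes). A called slope was found for 4 (16.7%, against 0.774%), BARD1, FANCD2, FANCM and CHEK1. The medians of the list were 0.57 and 0.25. BARD1, the partner of BRCA1, rose 2.78-fold without overlap, with a slope of 0.64 (adjusted p = 0.0469). Among 17 genes of the chromatin of dividing cells, 9 were higher (52.9%, against 10.1% of all genes). A called slope was found for 4 (23.5%, against 0.774%), HELLS and the high mobility group genes HMGB1, HMGB2 and HMGB3. The medians of the list were 1.03 and 0.37. HELLS, a remodeller that aids DNA methylation, had 0.95, 1.47 and 2.43 against -0.66, -0.58 and -0.36, a rise of 4.33-fold with a slope of 1.08 (adjusted p = 0.00913). HMGB2 rose 4.01-fold with a slope of 1.06 (adjusted p = 0.00148). EZH2, the methyltransferase of the Polycomb complex, rose 3.10-fold between the sides, while its slope of 0.50 was not called (adjusted p = 0.219).

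Of 19 genes of the E2F, RB, DREAM and FOXM1 group, which act upstream of these genes, 1 was higher and 1 lower on the high side (5.26% each, against 10.1% and 2.26% of all genes; median 0.04). A called positive slope was found for 1, LIN9 of the DREAM complex (5.26%, against 0.774% of all genes; median 0.09). E2F1, an activator of S phase genes, ran from -0.22 to 0.20 (median -0.02) on the high side and from -0.17 to 0.90 (median 0.78) on the low side, a difference of -0.63 ± 0.17 (adjusted p = 0.00629, under 2-fold). Its slope was positive in both Tag classes, 0.10 in arrays of low and 0.39 in those of high Tag mean, and 0.16 ± 0.06 in all iUC samples (adjusted p = 0.199). The one low-side sample in the range of the high side was iUC replicate 16, at -0.17. E2F3 was called lower on the high side (-0.43 to 0.06, median -0.20, against 0.27 to 1.93, median 1.55; difference -1.57 ± 0.23, adjusted p = 2.61e-04) with a slope of -0.11 (adjusted p = 0.556), and E2F5 was called 2.06-fold higher with overlap and a slope of 0.35 (adjusted p = 0.472). FOXM1, the factor of the mitotic wave, overlapped fully between the sides (-0.04 to 0.47, median 0.22, against -0.29 to 0.70, median 0.35; difference -0.10 ± 0.15) and had a slope of 0.29 ± 0.08 that missed the threshold (adjusted p = 0.0963). MYBL2, which encodes B-MYB, had a difference of 0.51 ± 0.23 (adjusted p = 0.0699) and a slope of 0.44 (adjusted p = 0.111). RB1, the retinoblastoma protein gene, had a difference of 0.20 ± 0.10 (adjusted p = 0.0838) and a slope of 0.09.

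Of 17 cyclins, kinases and inhibitors of G1, 3 were higher on the high side and 3 had a called slope (medians 0.51 and 0.12). Each is 17.6%, against 10.1% and 0.774% of all genes. CKS1B, a subunit of cyclin-dependent kinases, had 0.37, 0.57 and 2.06 against -1.60, -1.23 and -0.78, a rise of 4.17-fold with a slope of 0.97 (adjusted p = 0.0197). CDKN2C, an inhibitor of CDK4 and CDK6, rose as well, 4.24-fold (0.43 to 2.11, median 1.16, against -1.73 to -0.20, median -1.01), with a slope of 1.21 (adjusted p = 0.0358), and CDKN3, a phosphatase that acts on cyclin-dependent kinases, was the other called member. Both named genes parted the sides. The S phase cyclins CCNE1 and CCNE2 differed by 0.64 ± 0.13 (adjusted p = 0.00175, under 2-fold) and 1.31 ± 0.27 (adjusted p = 0.00159, called with overlap), with slopes of 0.30 and 0.63 that were not called. CCND1, the G1 cyclin that answers growth signals, had a difference of 0.56 ± 0.58 (adjusted p = 0.414), and CDKN1A, the p21 inhibitor, one of -0.38 ± 0.38 (adjusted p = 0.404). With the Tag class, where the low side rests on iUC replicate 16, CDKN1A was called lower (-2.03 ± 0.45, adjusted p = 0.0424; 0.0973 without the arrays of high Tag mean), and its slope was -0.64 (adjusted p = 0.174). In iUC replicate 16 both stood at the top of the low side, at 1.74 and 1.96.

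Growth and metabolic lists had called members between the sides and no called slope beside the Tag class. Ribosome biogenesis and MYC had 6 of 21 genes higher (median 0.85, slope median 0.12). Glycolysis and hypoxia had 5 of 24 (0.76 and -0.01), oxidative phosphorylation 4 of 19 (0.76 and 0.08), and cholesterol and fatty acid synthesis 6 of 15 (0.92 and 0.19). In that order these are 28.6%, 20.8%, 21.1% and 40%, against 10.1% of all genes. None of these 4 lists had a member with a called slope. Over all genes 0.774% had a positive and 0.338% a negative called slope, so few calls are to be looked for in lists of this size. In the same order, positive slopes of any size in the arrays of low Tag mean numbered 17, 14, 16 and 11. In those of high Tag mean they numbered 10, 10, 4 and 10. Over all genes the shares were 39.3% and 56.9%. With the Tag class the median difference between the sides for glycolysis and hypoxia was -0.22. EGLN3, an oxygen sensor that marks hypoxic cells, had 0.37, 0.58 and 1.29 on the high side and -2.13, -1.74 and 0.48 on the low side (4.26-fold, adjusted p = 8.04e-04), and the low-side value inside the range of the high side was that of iUC replicate 16. Its slope was 0.15 (adjusted p = 0.745). NCL, the nucleolar protein nucleolin, rose 2.18-fold with a slope of 0.33 (adjusted p = 0.226), and SDHD, of mitochondrial complex II, rose 2.36-fold with a slope of 0.17 (adjusted p = 0.457). SQLE and FDPS, enzymes of cholesterol synthesis, rose 4.18-fold and 3.54-fold, with slopes of 0.73 and 0.84 that missed the threshold (adjusted p = 0.211 and 0.0953). MYC itself had a difference of 0.77 ± 0.46 (adjusted p = 0.159) and a slope of -0.18.

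Markers of the other cell types of a bladder sample were counted in the same way, beside 10.1% of all genes higher and 2.26% lower on the high side. Smooth muscle had 0 of 23 genes higher and 1, SYNPO2, lower on the high side (median difference -0.11). Fibroblasts and matrix had 0 of 22 called and endothelium 0 of 16 (medians -0.15 and -0.24). T and NK cells had 0 of 19, B and plasma cells 0 of 9, macrophages 0 of 17 and neutrophils 0 of 13, with medians of -0.35, -0.36, -0.20 and -0.12. In that order, 7, 4, 0 and 4 of these genes were lower on the high side without overlap, against 21.5% of all genes. For smooth muscle, fibroblasts and endothelium the numbers were 5, 1 and 2. The list means overlapped for smooth muscle (-0.45 to 0.51 on the high side, -0.38 to 0.16 on the low side) and fibroblasts (-0.63 to 1.11 against -0.85 to 0.77), and for macrophages (-0.64 to 0.61 against -0.41 to 0.63). For T and NK cells they ran from -0.23 to 0.10 against 0.05 to 0.62. No gene of these lists had a called slope (over all genes 0.774% had a positive and 0.338% a negative one). In the 7 arrays of high Tag mean, positive slopes numbered 20 for smooth muscle, 21 for fibroblasts and 15 for endothelium. In the 11 of low Tag mean they numbered 14, 13 and 7. Over all genes the shares were 56.9% and 39.3%. PDGFRA, the fibroblast gene of largest difference, had 0.54 to 2.01 (median 1.19) against -2.02 to 3.22 (median -1.14), and its difference of 1.64 ± 0.74 was not called (adjusted p = 0.0724). The part of these cells in the results above was not tested.

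Urothelial lists mark the differentiation of the tumour cells. Of 21 luminal genes 2 were higher on the high side (9.52%, against 10.1% of all genes), KRT8, a keratin of simple epithelium (2.09-fold), and KLF5, an epithelial transcription factor (2.07-fold). The median difference of the 21 was 0.84, and 0.22 with the Tag class. Their slopes were 0.24 and 0.21 and were not called. Of 14 basal and squamous genes 0 were higher and 1 (7.14%, against 2.26% of all genes), KRT17, was lower (-0.67 to -0.20, median -0.41, against 0.15 to 1.63, median 0.45), with a slope of -0.16 (adjusted p = 0.58), and the median of the list was -0.32. In the 11 arrays of low Tag mean 1 of the 14 slopes was positive (median -0.21), against 39.3% of all genes, and 1 gene, COL17A1, had a called negative slope. In the 7 of high Tag mean 10 of the 14 were positive (median 0.17), against 56.9% of all genes. The low share in the 11 arrays was not particular to this list. Positive there were 0 of 19 genes of T and NK cells, 2 of 9 of B and plasma cells and 1 of 17 of macrophages. Neutrophils had 2 of 13, and ERBB receptors and ligands 2 of 13. In the 7 arrays these 5 lists had 11, 8, 4, 8 and 5. A difference of slope between the 2 classes was called for 0 genes. The mean of the basal and squamous list was 0.90 in iUC replicate 16, the highest of the low side. Interferon-stimulated genes had 1 of 19 called higher, IFIH1, immediate early genes 1 of 17, KLF4, genes of MAPK feedback 1 of 12, DUSP6, and ERBB receptors and ligands 0 of 13, with medians of 0.17, 0.08, 0.19 and -0.17. These 4 lists had 0 members with a called slope. Over all genes 10.1% were higher between the sides, 0.774% had a called positive slope and 0.338% a negative one. IFIH1, a sensor of viral RNA, reached 2.86 in iUC replicate 17 against -0.15 to 0.97 in the other samples of the high side.

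The 10 largest rises among genes whose sides did not overlap were 5.82-fold to 4.89-fold. They were the drug transporter ABCG2, the actin-capping gene TMOD3, LOC485338, LYSMD2, APOOL, the ubiquitin-conjugating enzyme UBE2T, KIF11, NUF2, CDK1 and GSR, which encodes glutathione reductase. Of these, 5 had a called slope, LOC485338, UBE2T, KIF11, NUF2 and CDK1, and 4 of the 5 belong to division or DNA repair by their known roles. ABCG2 had -0.16, 2.11 and 3.24 against -0.89, -0.75 and -0.27, with normal bladder at 1.67 to 2.48. Its slope of 1.26 ± 0.48 was not called (adjusted p = 0.206). TMOD3 had a slope of 0.90 in the arrays of low and -0.05 in those of high Tag mean. The 10 largest falls were MORC1, TOX2, OR10Q1, SELENOV, KBTBD13, LOC478825, MEX3B, SCML4, LOC478801 and EOMES, and 0 of the 10 had a called slope (lowest adjusted p 0.0979, for SCML4). MORC1, a gene of the male germ line, had -1.12, -0.61 and 0.15 on the high side and 0.43, 2.92 and 3.13 on the low side, a difference of -3.10 ± 0.43 (adjusted p = 2.25e-04). On the low side iUC replicate 16 held the value of 0.43, and the other 5 low-side arrays, all of high Tag mean, lay at 2.85 or above. TOX2 had 0.25 in iUC replicate 16 and 2.28 to 2.76 in those 5, the olfactory receptor gene OR10Q1 0.53 and 2.17 to 2.34, and EOMES, a T-box factor of lymphocytes, 0.33 and 1.77 to 2.19. The slopes of these 4 genes were -0.31, -0.14, -0.35 and -0.16.

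**Figure D4:**
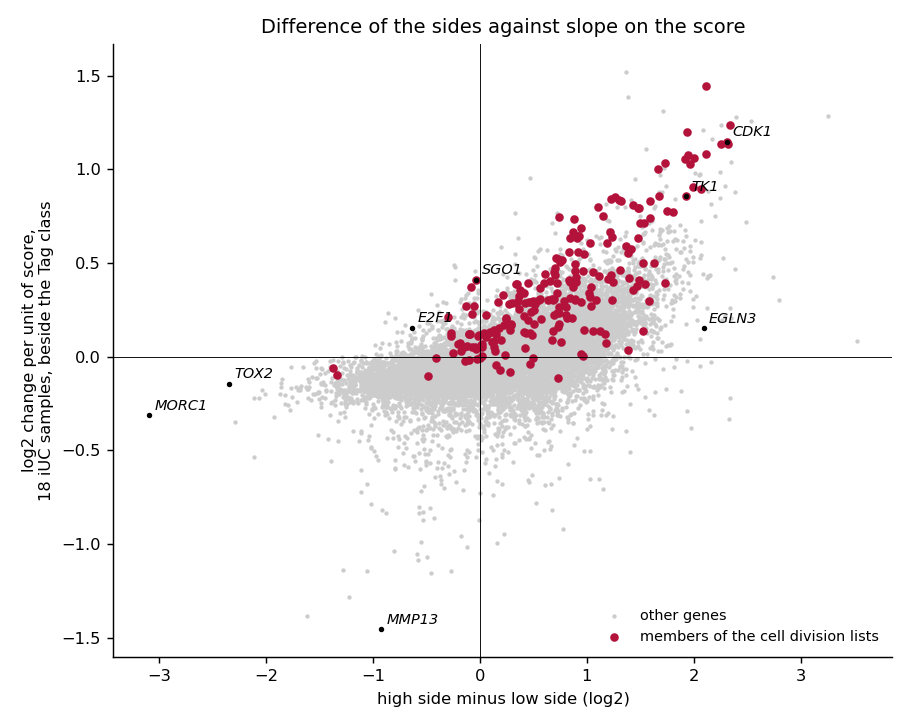
Each of the 15109 genes tested by its difference between the sides (horizontal axis, log2, 6 against 6 samples) and its slope on the score in 18 iUC samples beside the Tag class (vertical axis, log2 per unit of score), with members of the cell division lists in red. CDK1 and TK1 are high on both axes, while MORC1, TOX2 and EGLN3 differ between the sides with slopes of -0.31, -0.14 and 0.15.

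The 10 genes of largest positive slope among those called in the arrays of low Tag mean all had a called slope over the 18 iUC samples as well, and 8 of them are described above. SHCBP1, an adaptor found at the midbody of dividing cells, rose 4.50-fold (1.29 to 2.26, median 1.83, against -0.71 to 0.25, median -0.46) with a slope of 1.16 (adjusted p = 5.49e-04), and LOC476070 had a slope of 1.24 (adjusted p = 2.64e-04). The negative slopes were of another kind. MMP13, a collagenase, was at 4.93 in iUC replicate 16 and at -0.35 to 0.76 in the other 5 samples of the low side, against -0.68 to 0.90 on the high side. In the same sample TFF3, a trefoil peptide of mucous epithelium, was at 2.36, KLK6, a secreted protease, at 2.60, SPO11, the enzyme of meiotic DNA breaks, at 2.49, and PLAC8A at 3.65. Their slopes in the arrays of low Tag mean ran from -1.89 for MMP13 to -0.93 for SPO11. Over all iUC samples the slopes were -1.45 for MMP13, -0.82 for TFF3, -0.79 for KLK6, -0.72 for SPO11 and -1.15 for PLAC8A. In the same fit without iUC replicate 16 they were -0.24, -0.19, -0.01, 0.04 and -0.28, in that order.

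Slopes over all 18 iUC samples leaned on iUC replicate 16. Without it 32 genes had a called positive slope, 31 of them among the 117, and limma called 0 negative slopes (479 at an unadjusted p under 0.05). Of the 31 genes called with and without it, 23 (74.2%) were members of the 9 division lists, among them CDK1, TTK, AURKB, PLK1, NUF2, KIF11, BIRC5, STMN1, DLGAP5, TPX2, NCAPG, NCAPG2 and TK1. The other 8 included SHCBP1, LOC476070, KPNA2, which encodes a nuclear import receptor, HAUS1, of the spindle complex augmin, and GPSM2, which orients the spindle. KPNA2, HAUS1 and GPSM2 were named after their values were seen, and had slopes of 0.97, 0.70 and 0.81. Leaving out any other iUC sample left between 52 and 73 division genes called. PIK3AP1, a signalling adaptor of immune cells named after its value was seen, had the smallest adjusted p among the negative slopes of genes also called lower between the sides (-0.32 ± 0.05, adjusted p = 0.00148), and without iUC replicate 16 its slope was -0.35 (adjusted p = 0.0517).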

How the data were processed

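RNA of 18 canine iUC and 4 normal bladder samples was hybridised to Affymetrix Canine 2.0 arrays, 1 array a sample, and read into GeneSpring GX by the authors. The deposited values are log2 values of 43035 probe sets, centred by the authors on the median of each probe set over the 22 arrays. The sources used here do not give how probes were summarised or arrays normalized. Centred values hold no level, so no filter on dim probes was possible, and the number of arrays limits precision.

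Of 42924 probe sets left without controls, 29254 had 1 symbol in the platform annotation, 439 had several and 13231 had none. A gene was the mean of its probe sets with 1 symbol, which gave 15115 genes. Samples were ordered by the score and the outer 6 of each end were compared with and without the Tag class (lmFit and eBayes of limma 3.58.1, R 4.3.3), and slopes on the score were fitted in all iUC samples and in each class. The 6 score genes were left out, and p-values were adjusted by Benjamini-Hochberg over 15109 genes. Array measures were compared by an exact permutation test. Replicates are separate dogs. The samples, the score and the 29 gene lists, from general knowledge, were chosen with earlier results of these data known. The members of 1 list are not reported here.

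Named genes are the 10 largest rises and falls among called genes without overlap, up to 4 members of a list, 14 measured regulators of the cell cycle, and the genes of largest slope in arrays of low Tag mean. Not every gene this allows is described. The alternatives tried were array weights, quantile normalization, scaling by each array's 75th percentile, other summaries of probe sets, the methods' unpaired test, the Tag mean as a number and leaving out each sample. The slope over all iUC samples was planned, and its alternatives were added after the data were seen. The code was tested on simulated data. Figures were drawn with Python 3.11.15, pandas 2.3.3 and matplotlib 3.10.9.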

Additional observations from a re-analysis of the deposited data

Results flagged for a closer look

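A sample was picked out where its gap to the nearest other sample of its side, or of the normal group, took up more of that group's range than chance gives in about 1 of 20 groups. This was applied to the genes named above, in 273 groups of samples, and it picked out 37. Of these, 20 were iUC replicate 16, the low-side array of low Tag mean, and in 14 of the 20 its value lay below the other 5 low-side arrays while those 5 were all above 0. Some of the genes had been named for a large fall or a negative slope in which that array stood apart. The count for iUC replicate 16 was thus partly set by the choice of genes. MORC1 was at 0.43 there (others 2.85 to 3.13), TOX2 at 0.25 (2.28 to 2.76), OR10Q1 at 0.53 (2.17 to 2.34), EOMES at 0.33 (1.77 to 2.19), SELENOV at 0.34 (1.96 to 2.42) and KBTBD13 at 0.31 (2.00 to 2.25). LOC478825 was at 0.30, MEX3B at 0.39, SCML4 at 0.30, E2F3 at 0.27, CDC25B at 0.19 and SYNPO2 at 0.022. SGO1 was at -0.71 (0.21 to 0.50) and E2F1 at -0.17 (0.58 to 0.90).

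Values of iUC replicate 16 above the rest of the low side were those of MMP13 (4.93, others -0.35 to 0.76), KLK6 (2.60), SPO11 (2.49), TFF3 (2.36) and EGLN3 (0.48, others -2.13 to -1.53). TTK was below the rest (-0.78, others -0.38 to -0.27). Elsewhere on the low side iUC replicate 4 was highest in MYBL2 (0.89) and CCNE1 (0.40), and iUC replicate 18 was lowest in RB1 (-0.17).

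On the high side iUC replicate 17 was highest in IFIH1 (2.86) and lowest in KIF20B (-0.095, others 0.93 to 1.38), and iUC replicate 14 was highest in TYMS (1.25) and EGLN3 (1.29). The lowest values of CENPP (0.64), ECT2 (0.73) and KLF5 (0.19) were those of iUC replicates 9, 8 and 12. Among normal bladders, replicate 1 was apart in UBE2S (0.88), PCNA (0.52), TK1 (-0.92), MMP13 (0.37) and HAUS1 (-0.64), and replicate 2 in PAICS (-0.29) and MYC (-0.18).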

How the results depend on the processing

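No paired analysis was possible because every iUC sample has a replicate number of its own and the sides share none. The sides held 12 of 12 samples with the score from quantile-normalized values or values scaled to the 75th percentile, and 11 of 12 without CDC20 or RRM2. Genes called higher and lower between the sides numbered 754 and 760 after quantile normalization, 5476 and 1488 over probe sets, 2659 and 819 with the probe set of largest variance, 4447 and 5038 without a fold threshold, and 31 and 46 without arrays of high Tag mean, where the low side is iUC replicate 16, assumed to vary like the high side. They were 1324 to 2041 and 282 to 485 leaving out 1 sample. With the Tag class they were 334 and 299 after quantile normalization, 0 and 0 in limma with the Tag mean as a number (404 and 814 at an unadjusted p under 0.05), and 59 to 111 and 78 to 136 leaving out 1 sample. Leaving out iUC replicate 16 could not be fitted there, since side and class then coincide.

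In arrays of low Tag mean, positive and negative slopes called numbered 32 and 5 after quantile normalization, 64 and 50 after scaling, 17 and 4 with array weights, and 4 to 202 and 0 to 977 leaving out 1 sample. The 4 and 0 are without iUC replicate 16 (646 and 775 at an unadjusted p under 0.05), and the 202 and 977 without iUC replicate 14. Over all iUC samples with the Tag class they were 350 and 351 after quantile normalization, 62 and 7 with array weights, 51 and 8 with the Tag mean as a number, 3957 and 4870 with no Tag class, and 32 to 126 and 0 to 126 leaving out 1 sample. Division genes with a called slope were 101 after quantile normalization, 41 with the Tag mean as a number and 23 to 73 leaving out 1 sample, the 23 without iUC replicate 16. The causes were not tested.

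Of 91 genes named, 46 called between the sides were no longer called with the Tag class and 5 were newly called, CDKN1A, MMP13, PLAC8A and TFF3 lower and TPX2 higher. Some single values changed sign, none of them called on either side of the change. With the Tag class, or without arrays of high Tag mean, differences between the sides were 0.16 for E2F1, 0.51 for FOXM1, 0.84 for SGO1, -1.51 for CCND1, -1.01 for MYC and -2.00 for PDGFRA, and SGO1 was at 0.0024 after quantile normalization. With the Tag mean as a number, slopes were 0.16 for E2F3, 0.065 for EOMES, 0.041 for KBTBD13, 0.12 for LOC478825, 0.12 for MEX3B, 0.15 for MORC1, 0.10 for SELENOV, 0.18 for TOX2, 0.17 for CDC25B and 0.16 for KIF18B. Without iUC replicate 16 they were 0.18 for CCND1, 0.014 for E2F3, -0.10 for E2F5, 0.19 for MYC, 0.98 for PDGFRA, 0.039 for SPO11, 0.060 for CDC25B and 0.045 for KIF18B. Between the sides, the medians of the E2F and immediate early lists were -0.036 and -0.14 after quantile normalization, each above 0 in the values as deposited.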
